A study of Homo sapiens with 4 samples.

Results

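The genes of MHC class I antigen presentation examined here were the heavy chain genes HLA-B, HLA-C, HLA-E and HLA-F, the light chain gene B2M, the peptide loading genes TAP1, TAP2 and TAPBP, and the immunoproteasome subunit gene PSMB9. These 9 genes were chosen by symbol and found through their Ensembl identifiers, and they are 9 of the 61541 genes in the count table. RNA sequencing had been performed on MDA-MB-231, an established human breast cancer cell line of mesenchymal character. Cadmium cells (n = 2 libraries) had been selected for resistance by long-term passaging in medium with cadmium sulfate, ending at 10 µM. Control cells (n = 2 libraries) were untreated cells of the same line, and their passaging is not stated. Whether the cadmium libraries came from separately selected lines or from a single one is not stated in the sources used here, so the p-values measure only the spread between these libraries. Control libraries are called control 2 and control 3 after the numbers in the count table, and cadmium libraries are called cadmium 1 and cadmium 2.

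MHC class I molecules show peptides from inside the cell to CD8+ T cells and to natural killer cells. Proteasomes, including those carrying immunoproteasome subunits such as PSMB9, cut proteins into peptides, the TAP1 and TAP2 transporter moves the peptides into the endoplasmic reticulum, and tapasin (TAPBP) bridges the transporter to a waiting class I molecule. That molecule is a heavy chain held together with beta-2-microglobulin (B2M). HLA-B and HLA-C are classical, highly polymorphic heavy chains, whereas HLA-E and HLA-F are nonclassical ones with little variation, and HLA-E is a ligand of natural killer receptors. Interferon gamma, acting through factors such as IRF1 and the transactivator NLRC5, is a well-known inducer of the pathway. All members except B2M lie in the MHC region of chromosome 6, and B2M lies on chromosome 15.

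The libraries held 51934729 to 61916007 counted reads. The control pair stood further apart than the cadmium pair. Among 12924 expressed genes, those averaging 100 or more normalized counts, the median absolute log2 ratio between libraries of a group was 0.39 for control and 0.11 for cadmium. Over the 9 members it was 0.34 for control and 0.08 for cadmium, and the widest splits were 1.19 (HLA-F) and 0.26 (TAP1). The line's markers VIM, CD44, AXL and CAV1 were abundant, and ESR1 and PGR had at most 18.9 and 29.6 normalized counts in a library. EPCAM, low in mesenchymal cells, had 2410 normalized counts in control 2 and 662 to 774 in the other libraries, whereas CDH1 had 614.6 in control 3 and 106.9 to 169.2 in the others. The summed level of 10 leucocyte markers was 8.74 to 10.7 CPM in control and 5.65 to 6.02 CPM in cadmium libraries, with CD3E and MS4A1 at 0 reads in all 4. The leucocyte marker genes with the most reads were CD8A (141 to 378 normalized counts in a library) and CD14 (68.7 to 221). PTPRC had 1.89 normalized counts in control 2, 143.5 in control 3 and 36.8 to 42.5 in cadmium libraries. Endothelial markers summed to 3.21 to 15.7 CPM and fibroblast markers to 20.9 to 30.3 CPM, and the part of other cells in the values below was not tested.

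Promoter sequences are shown first because the class I genes are known for shared control elements close to their start sites. RefSeq promoters (GRCh38.p14, 250 bases before to 50 bases after the start site) were matched for 8 of the 9 members, all except HLA-E. Shown are 120 bases upstream of the start site, 5′ to 3′ on the gene's strand, for the classical pair HLA-B and HLA-C, for HLA-F, for B2M and for TAP1. Capitals mark matches, on either strand, to GAAANNGAA (core of the interferon-stimulated response element), GGGNNTNNC (NF-kB) and TGACG (found within the cyclic AMP response element). The HLA-B stretch is chr6:31357260-31357379 (minus strand), that of HLA-C is chr6:31272173-31272292 (minus), that of HLA-F is chr6:29723234-29723353 (plus), that of B2M is chr15:44711357-44711476 (plus) and that of TAP1 is chr6:32853745-32853864 (minus).
HLA-B: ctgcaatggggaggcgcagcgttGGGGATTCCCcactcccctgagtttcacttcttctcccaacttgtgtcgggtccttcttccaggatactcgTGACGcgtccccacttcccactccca
HLA-C: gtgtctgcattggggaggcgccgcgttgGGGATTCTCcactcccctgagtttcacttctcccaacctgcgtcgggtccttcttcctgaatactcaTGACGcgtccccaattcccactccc
HLA-F: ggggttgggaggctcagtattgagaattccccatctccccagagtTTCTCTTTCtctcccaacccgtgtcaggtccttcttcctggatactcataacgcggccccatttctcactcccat
B2M: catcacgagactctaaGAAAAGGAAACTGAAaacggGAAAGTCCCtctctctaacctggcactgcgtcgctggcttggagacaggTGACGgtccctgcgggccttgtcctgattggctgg
TAP1: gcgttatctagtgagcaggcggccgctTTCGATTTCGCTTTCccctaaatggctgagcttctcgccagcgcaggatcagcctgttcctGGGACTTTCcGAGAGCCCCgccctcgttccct

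The stretches printed for HLA-B and HLA-C were 86.3% identical when aligned, and the promoters shared an NF-kB match and a TGACG at almost the same distance from the start site. The HLA-F stretch was 78.7% and 76.2% identical to them, and its promoter held a GAAANNGAA match at base -155 and had no TGACG match. The remaining pairs of printed stretches, all with B2M or TAP1, were 46.5% to 59.3% identical, although these start at another distance from the start site. The GAAANNGAA core was found in promoters of 5 members, namely HLA-F, B2M, TAP1, TAP2 and TAPBP, beside 8.11% of 35116 RefSeq promoters of the same length. B2M, TAP1 and TAPBP each held 2 overlapping copies of it. TGACG was found in 5 members (HLA-B, HLA-C, B2M, TAP2 and PSMB9) beside 24.6% of all promoters, and GGGNNTNNC in all 8 beside 52.3%. CCAAT was found in 6 members beside 34.6% of all promoters. The full site TGACGTCA was found in 0 members beside 1.85%, and TTCNNNGAA, the interferon gamma activated sequence, in 1 member (a second promoter of TAP1) beside 7.66%. TGCNCNC, a looser form of the core of the metal response element that MTF-1 binds, with any base allowed at the fourth position, was found in 4 members (B2M, TAP1, TAPBP and PSMB9) beside 55.9% of all promoters. TAP1 and PSMB9 are transcribed away from each other, with start sites 488 bases apart. A match is a description of the letters and not a bound site. Variants with other letters were not searched for. The lack of a GAAANNGAA match in HLA-B, HLA-C and PSMB9 therefore does not show that the element is absent.

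Of the 9 members, 0 were called by DESeq2 at an adjusted p-value below 0.1, whereas 225 of 19816 tested genes (1.14%) were called. The smallest adjusted p-value of a member was 0.268, for HLA-F. At an unadjusted p-value below 0.05 there were 2 members, HLA-B and HLA-F, both lower in cadmium, beside 6.92% of all tested genes. The quasi-likelihood test of edgeR and limma-voom also called 0 members (smallest adjusted p-values 0.622 and 0.669). An unadjusted p-value below 0.05 was found for 3 members with edgeR (HLA-E, HLA-F and TAP2) and 2 with limma-voom (HLA-E and TAP2). Both tools called 0 of 19241 genes, with 1506 (edgeR) and 1423 (limma) at an unadjusted p-value below 0.05. Both cadmium libraries lay above the control range for 2 members, HLA-E and TAP2, and below it for 3, HLA-B, HLA-F and B2M. This separation, in either direction, was found for 40.3% of all tested genes (20.3% higher, 19.9% lower). The median log2 fold change was -0.01 over the members and -0.02 over all tested genes, and 4 members had a positive and 5 a negative value. With upper-quartile scaling these medians were 0.046 and 0.036.

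**Figure D1:**
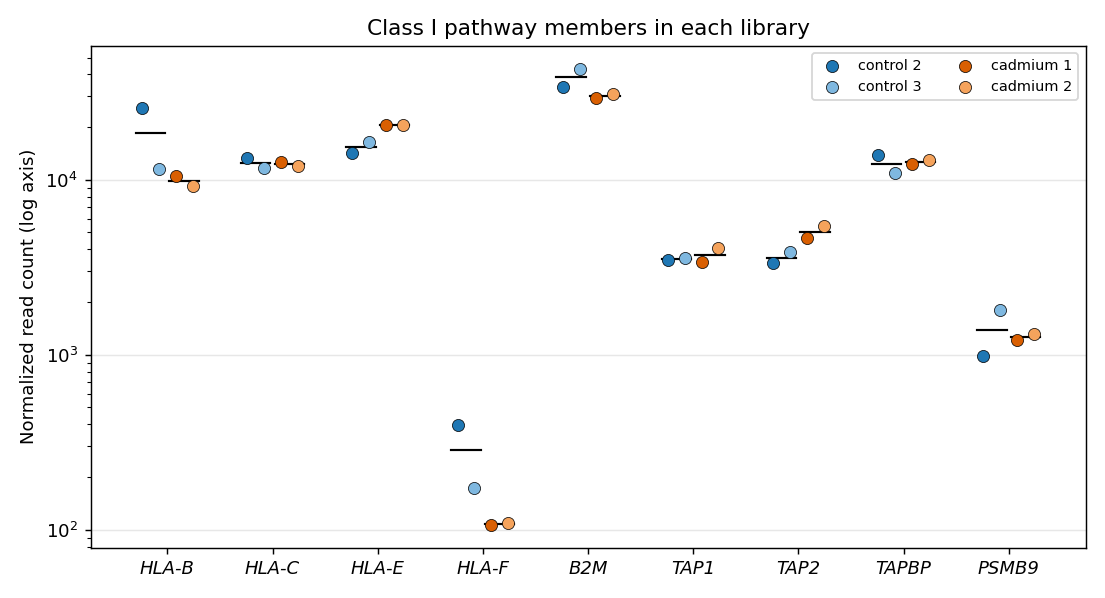
Normalized counts (log axis) of the 9 members in each library, with a point per library and a line at each group mean. HLA-B and HLA-F have control libraries more than 2-fold apart, with control 2 the highest library, and the cadmium points of HLA-E and TAP2 lie above both control points.

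HLA-B (ENSG00000234745, chr6:31353872-31357188, minus strand, hg38) was the heavy chain with the widest difference between groups among the abundant ones. Its normalized count was 25657 in control 2 and 11579 in control 3, against 10564 in cadmium 1 and 9179 in cadmium 2. Control 2 stood apart at 2.22 times control 3, and the cadmium libraries were just below control 3, so the groups did not overlap. In bulk libraries, fewer cells with a transcript and less of it per cell cannot be told apart. The control mean was 18618 ± 9954 (SD, n = 2) and the cadmium mean was 9872 ± 980 (SD, n = 2). The DESeq2 log2 fold change was -0.92 (SE 0.41, 95% interval -1.71 to -0.12), a fold of 0.530, with an adjusted p-value of 0.546 (unadjusted 0.0246). The unadjusted p-value was 0.0646 with edgeR and 0.0977 with limma-voom. Without control 2 the log2 fold change was -0.23, DESeq2 adjusted p-value 0.314, and without control 3 it was -1.39.

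HLA-C (ENSG00000204525, chr6:31268749-31272130, minus strand), the neighbouring classical gene with the similar promoter, had 13342 and 11653 normalized counts in control and 12698 and 12045 in cadmium. Both cadmium libraries lay inside the control range. Its log2 fold change was -0.01 (SE 0.25, 95% interval -0.50 to 0.47), with a DESeq2 adjusted p-value of 1.00.

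HLA-E (ENSG00000204592, chr6:30489509-30494194, plus strand) had 14274 normalized counts in control 2 and 16454 in control 3, against 20589 in cadmium 1 and 20469 in cadmium 2. Both cadmium libraries lay above both controls, and the cadmium pair was nearly equal. Means were 15364 ± 1542 (SD, n = 2) and 20529 ± 84.5 (SD, n = 2), a fold of 1.34. The log2 fold change of 0.42 (SE 0.25, 95% interval -0.07 to 0.90) had a DESeq2 adjusted p-value of 0.836 (unadjusted 0.0907), and edgeR gave an unadjusted p-value of 0.0375.

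HLA-F (ENSG00000204642, chr6:29722775-29738528, plus strand), a nonclassical heavy chain, was far less abundant. Its normalized count was 395.5 in control 2 and 173.3 in control 3, against 106.5 in cadmium 1 and 109.6 in cadmium 2. Control 2 was again the highest library, at 2.28 times control 3, and both cadmium libraries were below both controls. The log2 fold change of -1.40 (SE 0.50, 95% interval -2.38 to -0.41), a fold of 0.380, had a DESeq2 adjusted p-value of 0.268 (unadjusted 0.00546). It was -0.68 without control 2, DESeq2 adjusted p-value 0.481, and -1.88 without control 3. Other genes on the opposite strand, HLA-F-AS1 among them, cover 28.0% of its exon bases, and reads there were dropped or cannot be assigned to a strand.

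B2M (ENSG00000166710, chr15:44711487-44718851, plus strand) is the partner of every heavy chain. It had 33922 normalized counts in control 2 and 43132 in control 3, against 29347 in cadmium 1 and 30833 in cadmium 2. Here control 3 was the highest library, in the opposite order to HLA-B and HLA-F, and both cadmium libraries were below both controls. Means were 38527 ± 6513 (SD, n = 2) and 30090 ± 1050 (SD, n = 2). The log2 fold change was -0.36 (SE 0.27, 95% interval -0.88 to 0.16), a fold of 0.781 (DESeq2 adjusted p-value 0.952). It was -0.18 without control 3.

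Of the transporter pair, TAP2 (ENSG00000204267, chr6:32821833-32838739, minus strand) had 3336 normalized counts in control 2 and 3844 in control 3, against 4669 in cadmium 1 and 5410 in cadmium 2. Both cadmium libraries lay above both controls. Its log2 fold change of 0.49 (SE 0.26, 95% interval -0.03 to 1.00), a fold of 1.40, had a DESeq2 adjusted p-value of 0.757 (unadjusted 0.0623), and edgeR gave an unadjusted p-value of 0.0353. TAP1 (ENSG00000168394, chr6:32845209-32853816, minus strand), the other transporter chain, had 3497 and 3558 normalized counts in control and 3405 and 4072 in cadmium. Its groups overlapped, and its log2 fold change was 0.08 (SE 0.26, 95% interval -0.42 to 0.59). The difference between the TAP1 and TAP2 fold changes was not tested.

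TAPBP (ENSG00000231925, chr6:33299694-33314254, minus strand), which encodes tapasin, had 13810 and 10937 normalized counts in control and 12383 and 13044 in cadmium. Both cadmium libraries lay inside the control range, and the log2 fold change was 0.04 (SE 0.27, 95% interval -0.48 to 0.56). PSMB9 (ENSG00000240065, chr6:32844136-32859851, plus strand) had 979.3 normalized counts in control 2 and 1802 in control 3, against 1220 in cadmium 1 and 1308 in cadmium 2. Control 2 was the lowest and control 3 the highest library, and the cadmium libraries lay between them. The log2 fold change was -0.14 (SE 0.37, 95% interval -0.86 to 0.59). TAP1, TAPBP and PSMB9 each had a DESeq2 adjusted p-value of 1.00. Other genes share 12.4% of the exon bases of TAP1, 31.9% of TAP2, 28.4% of TAPBP, 18.0% of HLA-B and 5.21% of PSMB9, and 0 of those of HLA-C, HLA-E and B2M.

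Leaving out a control library changed which members were called. The remaining single control was then assumed to vary like the cadmium pair. Without control 2, DESeq2 called 4 members, HLA-E (log2 fold change 0.32, adjusted p-value 0.0444), TAP2 (0.39, 0.0600), B2M (-0.52, 7.21e-05) and PSMB9 (-0.51, 0.0419), and it called 14.8% of all tested genes. Without control 3 it called 4 members, HLA-B (-1.39, 3.03e-24), HLA-E (0.51, 1.02e-04), HLA-F (-1.88, 1.51e-05) and TAP2 (0.58, 6.58e-04), and 31.2% of all tested genes. HLA-E and TAP2 were on both lists. Their direction had to be the same, because both fits used the same cadmium libraries and these lay above both controls. The share of all tested genes on both lists was not computed. PSMB9 had a log2 fold change of -0.51 without control 2 and 0.36 without control 3. Without either cadmium library 0 members were called.

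Levels were compared between genes per length of the count table's gene models, as RPKM, the count scaled by gene length and by the total count of the library. In control the order of the mean levels was B2M (106 and 144 RPKM in control 2 and control 3), HLA-B (145 and 69.6), HLA-E (83.4 and 102), HLA-C (90.8 and 84.2), TAPBP (47.9 and 40.2), TAP1 (12.9 and 13.9), TAP2 (8.98 and 11.0), PSMB9 (5.01 and 9.78) and HLA-F (1.56 and 0.727). The ranges of B2M, HLA-B, HLA-E and HLA-C overlapped each other between neighbours in this order, as did those of TAP2 and PSMB9, and the remaining neighbours did not overlap. In cadmium, HLA-E had the highest RPKM, at 129 and 125. B2M (98.4 and 101), HLA-C (92.4 and 86.0) and HLA-B (64.0 and 54.5) came next, and these ranges did not overlap. The place of B2M depends on its gene model length of 5441 bases, beside 2922 for HLA-E. By reads, B2M was above HLA-E in every library, for example 29487 against 20687 in cadmium 1. TAPBP had 45.9 and 47.4 RPKM. TAP1 (13.4 and 15.7) and TAP2 (13.4 and 15.3) overlapped in cadmium, followed by PSMB9 at 6.67 and 7.01 and HLA-F at 0.450 and 0.454.

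The composition of the heavy chain reads does not depend on library scaling. HLA-B made up 47.8% of the reads of the 4 heavy chain members in control 2 and 29.1% in control 3, against 24.0% in cadmium 1 and 22.0% in cadmium 2. HLA-E made up 26.6%, 41.3%, 46.8% and 49.0% in the same order. HLA-B was therefore the largest share in control 2 and HLA-E in each of the other 3 libraries. HLA-C stayed between 24.9% and 29.2%, and HLA-F between 0.242% and 0.737%. Exact binomial 95% intervals, which cover counting error only, were narrow, for example 47.4% to 48.2% for HLA-B in control 2. The mean HLA-B share was 38.4% ± 13.3 (SD, n = 2) for control libraries and 23.0% ± 1.47 (SD, n = 2) for cadmium libraries, and the mean HLA-E share was 33.9% ± 10.4 and 47.9% ± 1.51. The exact two-sided permutation test gave 0.333 for both, the smallest p-value that 2 against 2 libraries can give. The summed normalized count of the 4 genes was 53668 and 39860 in control and 43958 and 41803 in cadmium, with overlapping groups.

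**Figure D2:**
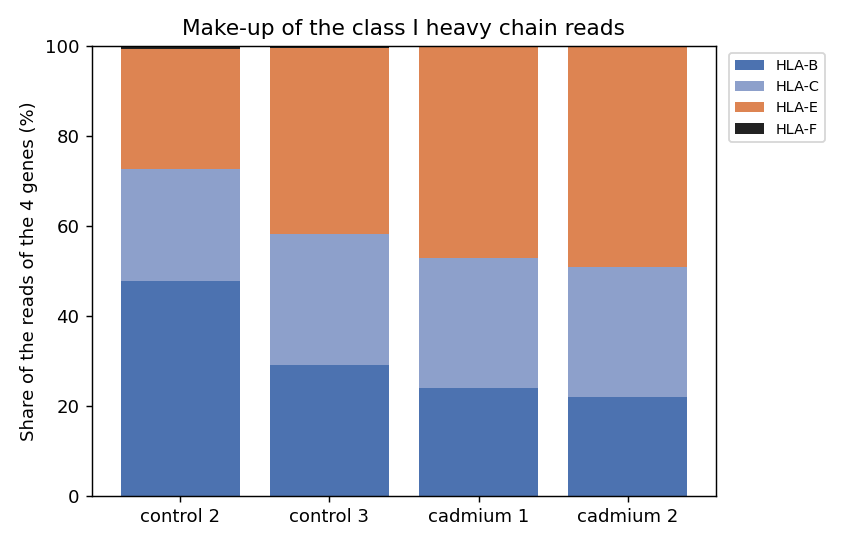
Share (percent) of each heavy chain gene in the summed reads of HLA-B, HLA-C, HLA-E and HLA-F, one bar per library. The HLA-B share is 47.8% in control 2, 29.1% in control 3 and at most 24.0% in the cadmium libraries, and the HLA-E share differs in the opposite order.

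The chromosome 6 members were then set against B2M within each library, a ratio of counts in which library scaling cancels. The ratio of HLA-E to B2M was 0.421 in control 2 and 0.381 in control 3, against 0.702 in cadmium 1 and 0.664 in cadmium 2, a difference of 0.77 on the log2 scale (1.70-fold). That of TAP2 was 0.0984, 0.0891, 0.159 and 0.175, a difference of 0.84. For both genes the cadmium libraries lay above the controls by more than the spread within either group. TAP1 and TAPBP were also higher in both cadmium libraries, by 0.42 and 0.40, although the TAPBP ratio was 0.407 and 0.254 in control and thus 0.407 against 0.422 at the nearest libraries. HLA-F was lower, by -0.93, with 0.00402 in control 3 against 0.00363 in cadmium 1. HLA-B, HLA-C and PSMB9 overlapped between the groups, with differences of -0.46, 0.33 and 0.27. HLA-B over B2M was 0.756 and 0.268 in control and 0.360 and 0.298 in cadmium.

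Thus 4 of the 8 chromosome 6 members had ratios to B2M that were higher without overlap and 1 had a lower one. B2M itself was lower in both cadmium libraries, and 45.6% of all tested genes had a higher ratio to B2M without overlap and 3.87% a lower one. Each of the 5 separated members had an exact two-sided permutation p-value of 0.333, the smallest possible, and 0.533 after Benjamini-Hochberg adjustment over the 8 members. The median difference over the 8 members was 0.36, and it was -0.16 when the median of 40 expressed genes around B2M took the place of B2M.

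**Figure D3:**
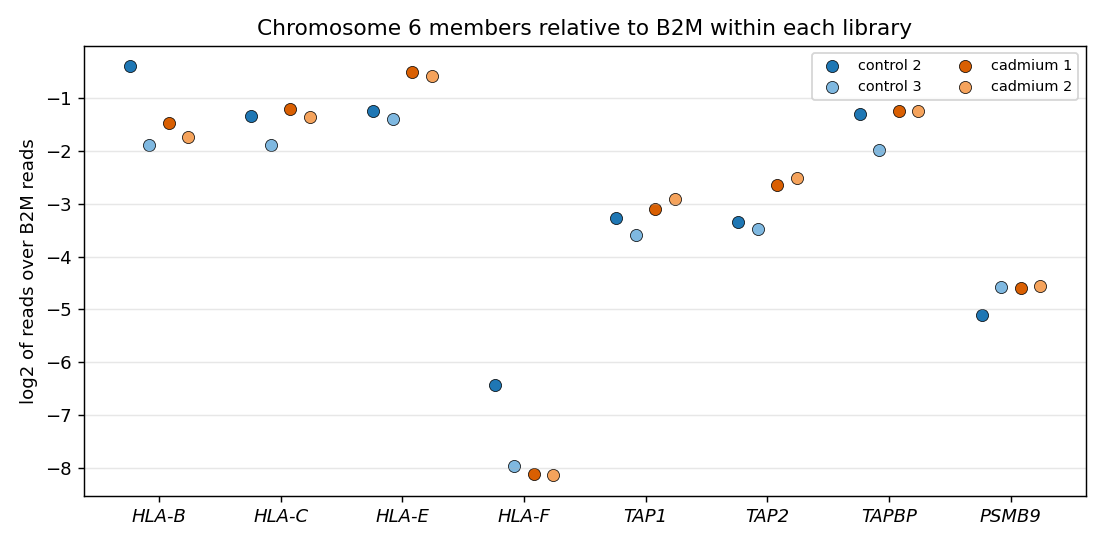
Ratio of each chromosome 6 member to B2M within each library, as log2 of its reads over B2M reads, with a point per library. The cadmium points lie above both control points for HLA-E, TAP1, TAP2 and TAPBP, below both for HLA-F, and within the control range for the others or overlapping it.

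The chromosomal surroundings were compared because other chromosome 6 genes also differed between the groups. The median log2 fold change was 0.18 over 657 expressed genes of chromosome 6 and -0.22 over 397 of chromosome 15. Between HLA-F and TAPBP, a stretch of 3.59 Mb, 91 other expressed genes had a median of 0.33, with 79 above 0. DESeq2 called 1 of them higher and 0 lower, beside 1.14% of all tested genes called. The called gene, named after its values were seen, was the heat shock gene HSPA1A (1.04, DESeq2 adjusted p-value 0.0473). The adjacent HSPA1B, a near-identical copy, had 0.67 and was not called (DESeq2 adjusted p-value 0.353). The 8 members in the same stretch had a median of 0.01. Among the 40 expressed genes nearest to each member on its chromosome, the neighbours of HLA-B had a median of 0.37 and 0 of 40 had a value below that of HLA-B. HLA-F likewise had 0 of 40 below it, beside a median of 0.32. PSMB9 had 1 of 40 below it, HLA-C 4, TAPBP 4 and TAP1 9. HLA-E (27 of 40 below, neighbour median 0.25) and TAP2 (31 of 40 below, 0.22) were above their neighbour medians. B2M had 4 of 40 below it on chromosome 15, beside a neighbour median of 0.05.

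The split of the control libraries at HLA-B was not seen in the median of its neighbours. For HLA-B, the log2 ratio of control 3 to control 2 was -1.15, and the median over its neighbours was 0.01. Single neighbours could differ from that median. MICA and MICB, named after their values were seen, had 1.89 and 1.59 times as many normalized counts in control 2 as in control 3. Neighbours split in each direction were not counted, so the split is not shown to be particular to HLA-B. Against control 3 alone, HLA-B was -0.13 in cadmium 1 and -0.34 in cadmium 2, and the neighbour medians were 0.30 and 0.37. HLA-B was thus below its neighbours' median in each of these pairings. Copy number was not measured, and its part in the values was not tested.

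**Figure D4:**
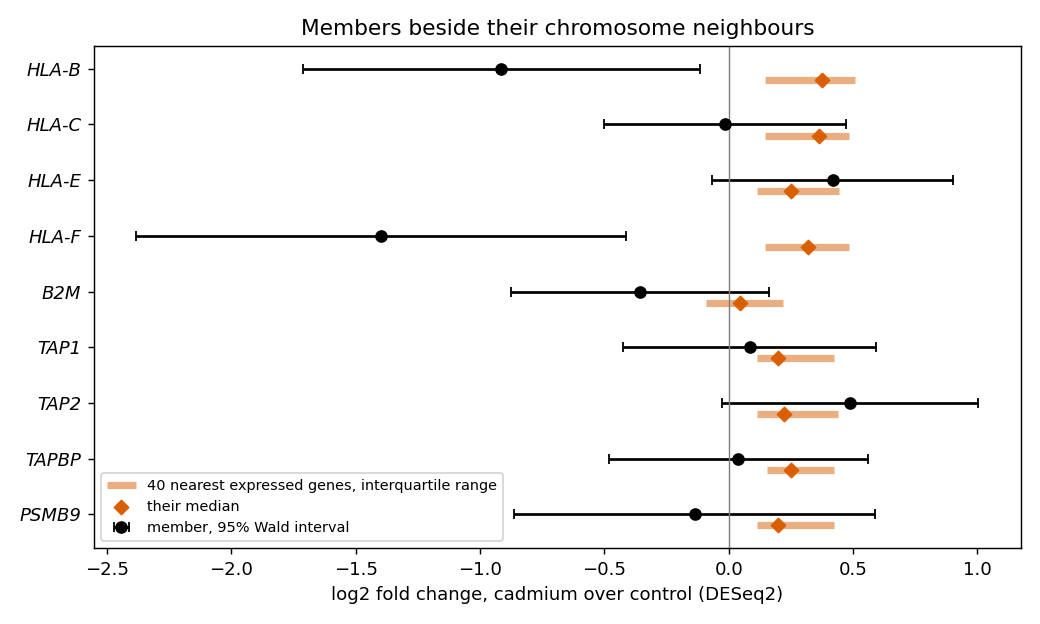
DESeq2 log2 fold change of each member (black, 95% Wald interval) beside the median (orange diamond) and interquartile range (orange bar) of its 40 nearest expressed genes. HLA-B at -0.92 and HLA-F at -1.40 lie left of all their neighbours, and HLA-E and TAP2 lie right of their neighbour medians.

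**Figure D5:**
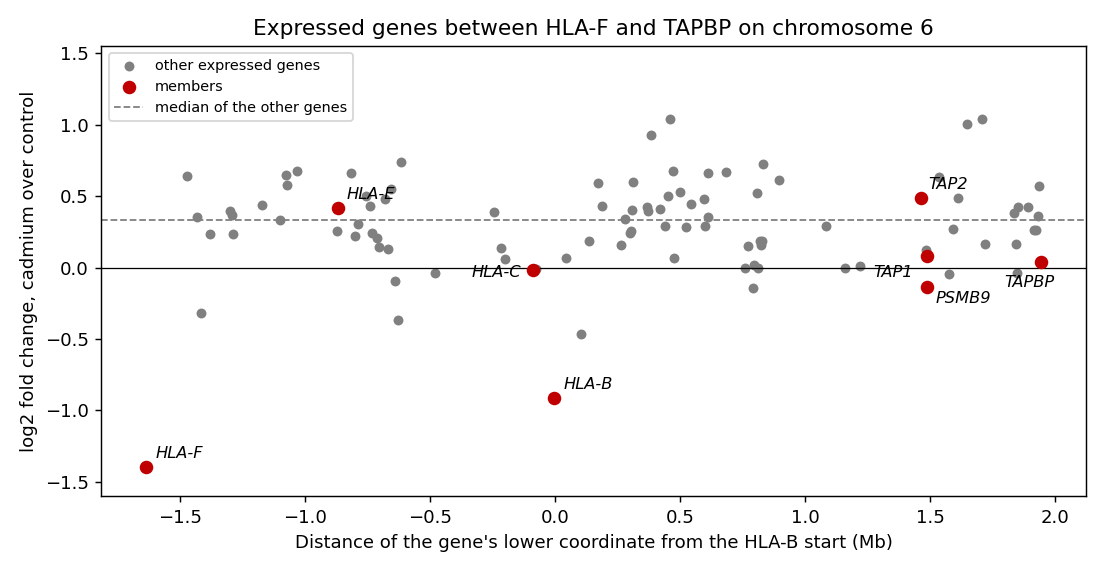
DESeq2 log2 fold change of expressed genes between HLA-F and TAPBP on chromosome 6 against distance from the HLA-B start (Mb). Members are red, the 91 other genes are grey, and the dashed line marks their median of 0.33.

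Other genes of the pathway were examined in 9 lists of 71 genes, of which 63 were tested and 0 were called by DESeq2. At an unadjusted p-value below 0.05 there were 5, beside 6.92% of all tested genes. They were HLA-B and HLA-F and, named after their values were seen, HLA-DPA1 (1.04), the class I pseudogene HLA-H (0.64) and the NKG2D ligand gene RAET1L (-2.15). For class I heavy chains and class I-like genes the median log2 fold change was -0.32 (8 tested, 2 positive), beside -0.02 over all tested genes, and it was -0.33 without control 2 and -0.088 without control 3. Peptide loading and chaperone genes had a median of 0.06 (10 tested, 7 positive), natural killer receptor ligands 0.07 (7 tested, 4 positive), class II genes 0.21 (10 tested, 7 positive) and class I pseudogenes 0.34 (4 tested, 3 positive). These medians depended on the control library used, although little for peptide loading and chaperone genes. Without control 2 they were 0.0041 for peptide loading and chaperone genes, 0.56 for natural killer receptor ligands, 1.30 for class II genes and 0.069 for pseudogenes. Without control 3 the same lists had 0.057, -0.25 (7 of 7 negative), -0.41 and 0.60. Heavy chain genes and pseudogenes are near-identical in places, and reads mapping to several of them were dropped, so their counts are uncertain.

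The immunoproteasome list had a median of -0.13 (5 tested), which was -0.41 without control 2 and 0.33 without control 3. PSMB8, the catalytic subunit gene next to PSMB9, had 2366 and 3123 normalized counts in control and 2963 and 3012 in cadmium (log2 fold change 0.12). For PSMB10, the remaining inducible catalytic subunit gene, the log2 fold change was 0.13, and the activator genes PSME1 and PSME2 had -0.23 and -0.13. The constitutive catalytic subunits PSMB5, PSMB6 and PSMB7, which the inducible ones replace, had a median of -0.06, which was 0.015 without control 2 and -0.34 without control 3.

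Regulators of class I transcription had a median log2 fold change of -0.26 (11 tested, 10 negative), which was -0.13 without control 2 and -0.42 without control 3. Their groups did not overlap for 5 genes that were lower in cadmium (IRF1, IRF2, RFX5 and RFXANK among them) and 1 that was higher (RFXAP), beside 19.9% and 20.3% of all tested genes. IRF1, an activator induced by interferon, had 2066 and 2051 normalized counts in control and 1594 and 1447 in cadmium, and here the control libraries were close to each other. Its log2 fold change was -0.44 (SE 0.26, DESeq2 adjusted p-value 0.826). NLRC5, the class I transactivator, had 2079 in control 2 and 1282 in control 3, against 1542 in cadmium 1 and 1288 in cadmium 2, with overlapping groups (-0.25). IRF2 had -0.50, RFX5 -0.26, RFXANK -0.26, RELA -0.27, CIITA -0.16, NFKB1 -0.11 and CREB1 -0.07, whereas RFXAP, a subunit of the RFX complex, had 0.29.

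The interferon gamma receptor and its kinases had a median of -0.39 (5 tested, 4 negative), which was -0.09 without control 2 and -0.67 without control 3. IFNGR2, the signalling chain of the receptor, had 3435 and 2738 normalized counts in control and 2126 and 2219 in cadmium, so that both cadmium libraries were below both controls. Its log2 fold change of -0.51 had a DESeq2 adjusted p-value of 0.757. IFNGR1 had -0.27, JAK1 -0.39, JAK2 0.33 and the feedback inhibitor SOCS1 -0.72.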

How the data were processed

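RNA-seq libraries of control and cadmium-resistant MDA-MB-231 cells were analysed from the deposited table of raw read counts. The authors trimmed the read pairs with bbduk, aligned them to hg38 with hisat2 and counted them per Ensembl gene with featureCounts 2.0.1. Per the file headers, default options applied, so mates were counted separately, strand was ignored, and reads with several positions or several overlapping genes were dropped. The deposited counts are not normalized. The table numbers its control columns 2 and 3, but the labels use 1 and 2, so these columns were used as controls of unknown replicate number.

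All genes were fitted in R 4.3.3 with DESeq2 1.42.0 (group as the only term, median-of-ratios size factors of 0.940 to 1.06, two-sided Wald test, Benjamini-Hochberg adjustment, threshold 0.1), the test used by the study. Normalized counts are counts divided by these factors. Independent filtering removed genes with a mean below 7.69, and all 9 members passed. Alternatives were edgeR 4.0.16 and limma 3.58.1. RPKM used the deposited gene lengths and each library's total count. Ratios, shares and promoter matches were computed in Python 3.11.15. Symbols matched 61369 of 61541 identifiers. Coordinates are 1-based on hg38. The scripts were tested on simulated data. Protein sequences were not used here. Values of some genes of the lists are not reported here.

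The members and lists were chosen with earlier results of these data known. Genes named were the 9 members, called genes of the lists, and immunoproteasome, regulator and interferon gamma receptor genes averaging 10 or more normalized counts. Any other gene was chosen after its values were seen, apart from the list of cell type markers.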

Additional observations from a re-analysis of the deposited data

How the results depend on the processing

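The number of members called was 0 with DESeq2, edgeR, limma-voom, TMM or upper-quartile factors, a fit without independent filtering, at least 10 counts in 2 libraries, halved counts or an adjusted p-value below 0.05, it was 2 at an unadjusted p-value below 0.05, and it ranged from 0 to 4 when a library was left out. For the pathway lists the number called at an adjusted p-value below 0.1 was 0 with the same tools, scalings, filters and halved counts, and 0 to 29 when a library was left out (0 without either cadmium library, 17 without control 2 and 29 without control 3). Over all genes, edgeR and limma called 0 of 19241, and DESeq2 with its other scalings and filters called 167 of 33455 to 247 of 18758. More genes were called in the fits without a control library than in the main fit, and fewer in those without a cadmium library. The median of chromosome 6 members relative to B2M ranged from 0.16 to 0.60 when a library was left out, and was -0.16 against genes around B2M. HLA-C had a log2 fold change of 0.046 with upper-quartile factors, and leaving out a library gave -0.12 to 0.085 (0.085 without control 2, 0.020 without cadmium 2). TAP1 had -0.12 minus its neighbours and -0.10 minus its chromosome, and -0.054 (without cadmium 2) to 0.20 when a library was left out. TAPBP had -0.21 minus its neighbours and -0.14 minus its chromosome, and -0.13 (without control 3) to 0.22 when a library was left out, with -0.00233 without cadmium 2. PSMB9 had -0.51 (without control 2) to 0.36 (without control 3). The cause was not tested. HLA-B, HLA-E, HLA-F, B2M and TAP2 kept their direction under every alternative listed here. Their groups did not overlap, as was found for 40.3% of all tested genes. Leaving out a library could therefore hardly reverse their direction, and those fits are no check on it. With 2 libraries a group the exact test cannot go below 0.333. No paired analysis was possible because numbers on the control columns do not match those of the labels, and the replicate block in the plan was left out.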

Other observations

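The class II genes, neighbours of TAP1, TAP2 and PSMB9 in the MHC region, differed widely between the control libraries. This was noticed after the values were seen. Of 10 tested class II genes, 6 had a normalized count in control 2 over 2 times that in control 3, and 0 had the opposite, beside 10.8% and 13.8% of all tested genes. HLA-DRA, the class II alpha chain gene, had 4731 normalized counts in control 2 and 1024 in control 3, against 3875 in cadmium 1 and 3175 in cadmium 2. HLA-DPA1 had 1038, 339.2, 1567 and 1262 in the same order, and HLA-DOA had 143.8, 21.3, 163.2 and 167.8. Control 3 was the lowest library for each of these 3 genes. CD74, the invariant chain gene on another chromosome, had 25377, 20166, 20291 and 17897. The median log2 fold change of the class II list was 0.21 with all libraries, 1.30 without control 2 and -0.41 without control 3.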
